A study of Mus musculus with 10 samples.

Results

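The 10 genes described here encode adhesion molecules of mammary epithelium: the surface antigens EpCAM (Epcam) and CD24 (Cd24a), and the integrin subunits α2 (Itga2), α3 (Itga3), α6 (Itga6), αv (Itgav), β1 (Itgb1), β4 (Itgb4), β5 (Itgb5) and β6 (Itgb6). They were taken by name. Of these genes Epcam, Itga6 (CD49f) and Itga2 (CD49b) encode proteins used for the sort, and the rest are other adhesion genes of epithelium. All 10 were found among the 26312 genes of the deposited table, and all 10 were among the 15180 genes tested. RNA came from the 4th mammary glands of C57BL/6J mice aged 12 weeks, dissociated and sorted on an antibody gate that the labels write as high EpCAM, low CD49f, Sca-1 positive and CD49b negative, with 50000 cells per RNA preparation. Wild-type mice, RSK2(+/+), gave 3 libraries at estrus and 2 at diestrus (WT). Mice labelled RSK2(-/-), which lack the ERK-activated kinase RSK2 according to that label, gave 3 libraries at estrus and 2 at diestrus (KO). All groups share strain, age, gland and gate. The labels name no allele beyond these genotypes and no treatment, and they do not say whether a library is 1 mouse or a pool, so p-values measure the spread between these libraries. The series title asks about the part of ERK1/2 and RSK2 signaling in estrogen homeostasis.

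Integrins are receptors made of 1 α and 1 β subunit that bind the extracellular matrix outside the cell and, through adaptor proteins such as talin and vinculin, actin inside it. In the mammary gland α6β4 and α3β1 bind laminins of the basement membrane, α2β1 binds collagen, and αvβ6 binds the latent form of TGF-β and releases the active cytokine. EpCAM is an adhesion and signaling protein of epithelial cells. CD49f is highest on basal cells and CD49b marks luminal progenitors, so a gate low in the first and negative for the second holds mature, hormone-sensing luminal cells.

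Library totals ran from 14108057 to 15307238 normalized counts, with 20831 to 22122 genes detected above 0. Rps6ka3, which encodes RSK2, was not lower in the libraries labelled KO. It had 136, 128 and 137 normalized counts in WT estrus 1, 2 and 3, and 158, 156 and 164 in KO estrus 1, 2 and 3, with 165 and 139 in WT diestrus and 156 and 165 in KO diestrus. At estrus the log2 difference was 0.25 ± 0.16 (SE, limma adjusted p = 0.35). Reads over the whole gene enter this count, and the allele is not described, so whether it should fall is not known. In every sample name the letters WT come after the genotype, for RSK2(-/-) as for RSK2(+/+). What they mean after RSK2(-/-) is not explained in the sources used here. The genotype of these libraries rests on the label alone, and the Rps6ka3 counts did not bear it out. KO stands for the label RSK2(-/-) throughout. In the libraries labelled KO at estrus short transcripts were relatively higher. Per doubling of transcript length their values changed by -0.116 to -0.0316 on the log2 scale, against -0.025 to 0.0577 in the 7 other libraries. Most of the 10 genes have long transcripts, so the differences below were also computed after removing, per library, the dependence on length and GC content.

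The levels per length differed widely among the genes. In normalized counts per kilobase of the longest annotated transcript (mean ± SD over all 10 libraries), Epcam stood at 21034 ± 2913 and Cd24a at 14882 ± 2597. Among the integrins, Itgb1, the common partner of α2, α3, α6 and αv, came next at 1569 ± 411. Itga6 had 932 ± 172 and Itgb5 729 ± 142, which overlap, and with exon length in place of transcript length Itgb5 (673 ± 131) came before Itga6 (445 ± 82.1). Itgav had 371 ± 143 and Itga3 287 ± 55.7, again within each other's spread. Itgb4, the partner of α6 in hemidesmosomes, had 165 ± 29.6 and Itgb6 108 ± 46.5. Itga2, the gene of the antigen that the gate excludes, was lowest in every group under both lengths, at 27.7 ± 11.1. The order of Itgav and Itga3 was turned in the KO estrus libraries, where Itgav had 179 and Itga3 317, and so was that of Itga6 (722) and Itgb5 (775) by transcript length.

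**Figure D1:**
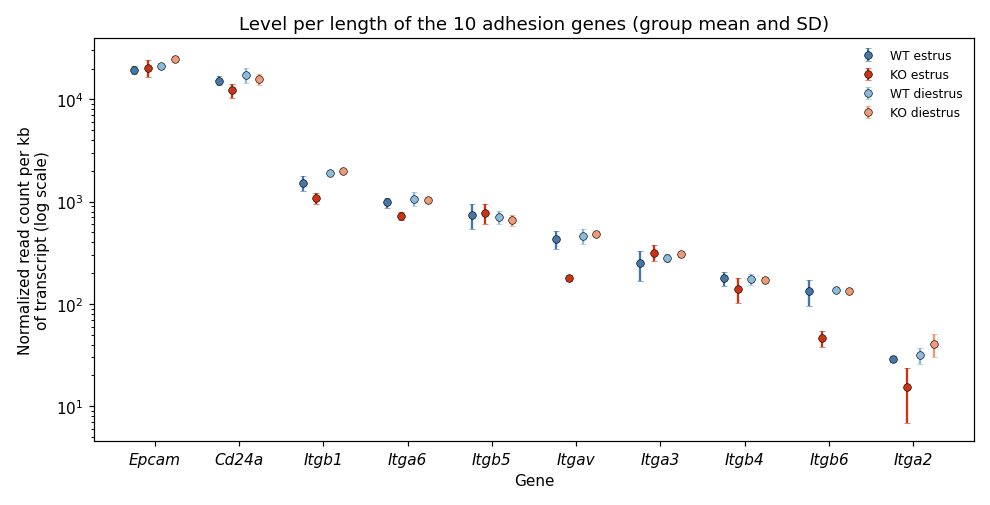
Normalized read count per kilobase of the longest transcript (y axis, log scale) of the 10 genes (x axis, from highest to lowest mean), as the mean of each group (points) with SD (bars; n = 3 for estrus and 2 for diestrus groups). Epcam and Cd24a lie above all integrins, and Itga2, at 15.3 in KO estrus and 29.0 in WT estrus, is lowest.

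At estrus the genes of both subunits of integrin αvβ6 fell in the libraries labelled KO. Itgav, which encodes αv (ENSMUSG00000027087, GRCm38 chromosome 2, 83724397 to 83806916), had 2382, 3516 and 3174 normalized counts in WT estrus 1, 2 and 3, and 1170, 1297 and 1311 in KO estrus 1, 2 and 3. The KO estrus libraries were the lowest 3 of all 10, and the diestrus libraries had 2878 and 3647 (WT) and 3279 and 3518 (KO). Itgav fell 2.37-fold, from 3024 ± 582 to 1259 ± 77.7 (SD, n = 3 and 3; limma log2 difference -1.25 ± 0.16, SE, adjusted p = 0.00768). Itgb6, which encodes the β6 chain that pairs with αv alone (ENSMUSG00000026971, chromosome 2, 60598292 to 60722643, minus strand), had 738, 745 and 437 counts in WT estrus and 264, 209 and 191 in KO estrus. Here too the KO estrus libraries were the lowest 3, with 656 and 668 counts in WT diestrus and 629 and 665 in KO diestrus. Itgb6 fell 2.83-fold, from 640 ± 176 to 221 ± 38 (log2 difference -1.50 ± 0.21, adjusted p = 0.00913). In bulk RNA, fewer cells that express a gene and less RNA per cell cannot be told apart.

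Both calls were kept when any 1 of the 10 libraries was left out, with log2 differences from -1.41 to -1.13 for Itgav (adjusted p from 0.00846 to 0.0348) and from -1.75 to -1.37 for Itgb6 (adjusted p from 0.00433 to 0.0415). With the trend on length and GC content removed they stood at -0.96 (adjusted p = 0.0109) and -1.23 (adjusted p = 0.032). The Itgb6 call was lost with the estrus libraries fitted alone (adjusted p = 0.0554), and both were lost without KO estrus 1 and 3 together, which leaves 1 KO estrus library (log2 -1.20 and -1.57, adjusted p = 0.15 for each). An antisense transcript, Gm13684, overlaps 5.9% of the Itgav exon length, and the strand setting of the counting is not given in the sources used here. Gm13684 had 17 to 59 counts per library.

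The promoter sequences of Itgav, Itgb6 and Itga2, which had the log2 differences of largest size at estrus, are printed here. Of these, Itga2 did not pass the test (limma adjusted p = 0.0732). Beside them stands that of Itgb5, whose protein is another partner of αv and whose level did not pass either. These sequences come from RefSeq windows on GRCm38.p6, 5′ to 3′ on the strand of the gene, and stop before the first base that lies in an annotated exon. Itgb6 has a second RefSeq start, at 60673693, whose window is not printed. For Itgb6 an annotated exon begins upstream of the RefSeq start at 60722603, so 210 bases are shown. The other 3 run up to the RefSeq start, with 250 bases each. Windows were found for 7 of the 10 genes, and Cd24a, Itga6 and Itgb4 had none. Capitals mark a GC box (GGGCGG or, on the other strand, CCGCCC).
Itgav, chr2:83724147-83724396, plus strand: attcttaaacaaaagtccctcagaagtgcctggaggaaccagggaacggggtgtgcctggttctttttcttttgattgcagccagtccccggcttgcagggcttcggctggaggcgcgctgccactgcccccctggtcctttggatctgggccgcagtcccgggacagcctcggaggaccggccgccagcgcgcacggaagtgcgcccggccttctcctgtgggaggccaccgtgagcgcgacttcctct
Itgb6, chr2:60722644-60722853, minus strand: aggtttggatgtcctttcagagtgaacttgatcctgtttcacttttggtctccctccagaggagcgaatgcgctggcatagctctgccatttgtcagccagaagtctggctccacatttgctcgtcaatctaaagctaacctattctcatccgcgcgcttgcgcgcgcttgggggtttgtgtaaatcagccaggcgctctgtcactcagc
Itga2, chr13:114932101-114932350, minus strand: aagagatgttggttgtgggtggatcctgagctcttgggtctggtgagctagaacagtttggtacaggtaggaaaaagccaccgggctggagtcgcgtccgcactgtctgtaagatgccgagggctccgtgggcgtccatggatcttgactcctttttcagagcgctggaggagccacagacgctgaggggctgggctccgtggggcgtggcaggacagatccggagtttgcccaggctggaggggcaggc
Itgb5, chr16:33829415-33829664, plus strand: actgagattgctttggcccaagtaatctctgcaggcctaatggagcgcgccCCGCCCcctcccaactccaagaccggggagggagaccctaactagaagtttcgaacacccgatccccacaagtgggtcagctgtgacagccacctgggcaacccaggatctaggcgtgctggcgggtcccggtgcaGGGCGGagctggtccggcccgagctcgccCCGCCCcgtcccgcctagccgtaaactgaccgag
Letters were searched on both strands in windows of 250 bases before to 50 bases after each start. None of the 9 windows of the genes held the palindromic estrogen response element (GGTCA and TGACC, 3 bases apart) or the cAMP response element TGACGTCA, which occur in 0.07% and 1.79% of all 32851 windows. The AP-1 site TGANTCA was in 1 of the 9, a second start of Itga3, against 7.81% of all windows. The CCAAT box was in 1 of the 9 (37.4% of all) and the GC box in 7 of the 9 (35.7% of all), those of Itgav and Itga2 lying after the start. A match is a description of the letters in these windows.

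**Figure D2:**
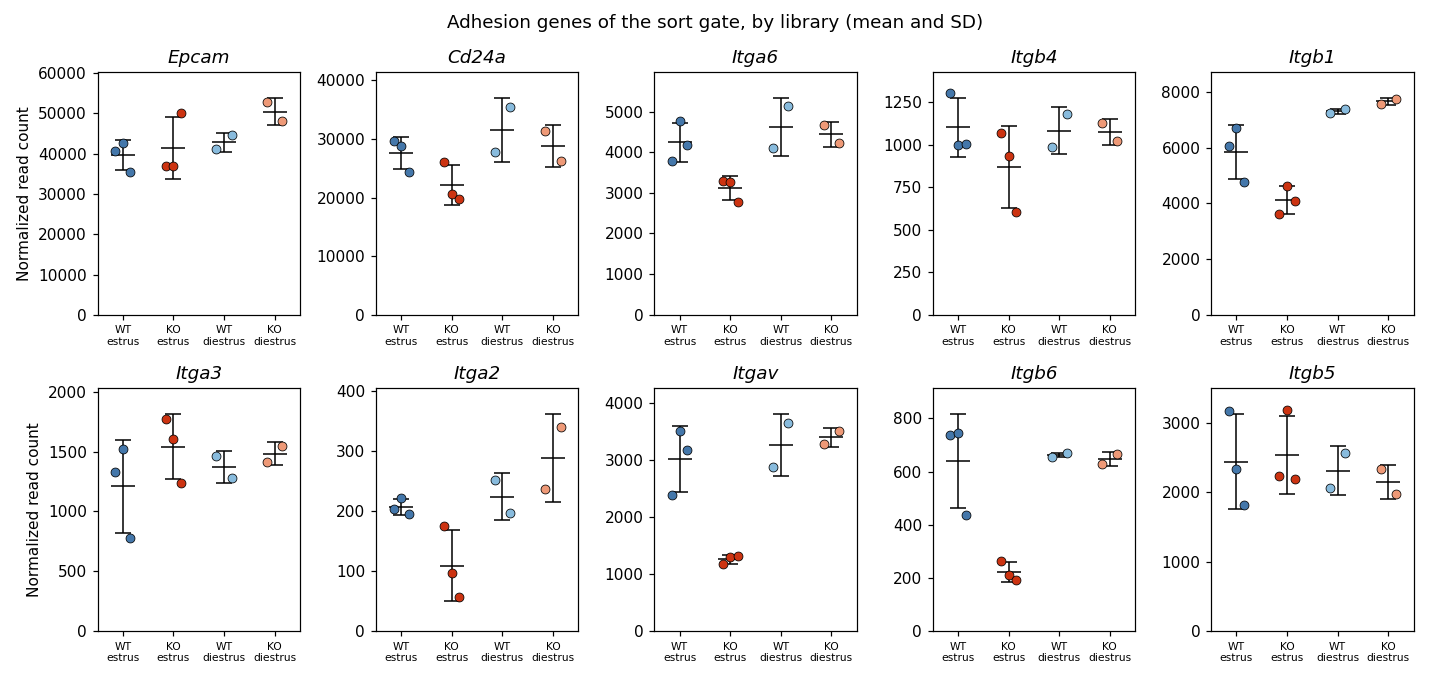
Normalized read count (y axis, from 0) of each of the 10 genes in every library (points) of the 4 groups (x axis), with the group mean and SD (bars). The KO estrus libraries of Itgav (1170 to 1311) and Itgb6 (191 to 264) lie below all other libraries, and those of Itgb5 (2202 to 3191) do not.

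No other partner of αv passed the test at estrus. Itgb5, which pairs with αv as a vitronectin receptor (chromosome 16, 33829665 to 33949338), had 3176, 2344 and 1815 counts in WT estrus and 2239, 3191 and 2202 in KO estrus. The groups overlap, and the log2 difference was 0.07 with a 95% interval of -0.39 to 0.53 (adjusted p = 0.859), so a fall like that of Itgb6 lies outside the interval. At diestrus Itgb5 had 2066 and 2568 (WT) and 2332 and 1984 (KO). Itgb3 and Itgb8, further partners of αv, had few counts, 1 to 12 and 4 to 20 per library. Itgb1, which can also pair with αv and is the partner of α2, α3 and α6 (chromosome 8, 128685654 to 128733200), had 6050, 6696 and 4774 counts in WT estrus and 3636, 4637 and 4101 in KO estrus. No KO estrus library reached the lowest WT estrus library, but the difference did not pass the test (log2 -0.49 ± 0.15, adjusted p = 0.0765) and was -0.28 with the length trend removed.

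Of the laminin receptor subunits none passed the test at estrus. Itga6, the gene of the sort antigen CD49f (chromosome 2, 71745616 to 71858416), had 3789, 4759 and 4167 counts in WT estrus and 3301, 3262 and 2773 in KO estrus. These groups did not overlap, and the log2 difference was -0.44 with a 95% interval of -0.76 to -0.13 (adjusted p = 0.0852), or -0.27 with the length trend removed. Itgb4, which pairs with α6 to anchor hemidesmosomes (chromosome 11, 115974709 to 116008412), had 1303, 1001 and 1005 counts in WT estrus and 1070, 935 and 603 in KO estrus (log2 -0.37 ± 0.20, adjusted p = 0.272). An antisense gene, B230344G16Rik, with 88 to 196 counts, overlaps 7.66% of its exon length. Itga3, whose product pairs with β1 as a laminin receptor (chromosome 11, 95044474 to 95076801), had 1330, 1525 and 776 counts in WT estrus and 1777, 1604 and 1242 in KO estrus. It had the highest difference of the 10 genes, at log2 0.39 with an interval of -0.10 to 0.88 (adjusted p = 0.304), and the groups overlapped.

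Itga2, which encodes the collagen receptor subunit CD49b that the gate excludes (chromosome 13, 114833081 to 114932100, minus strand), was low and varied most between libraries. It had 203, 221 and 195 counts in WT estrus, 174, 96 and 57 in KO estrus, 251 and 196 in WT diestrus, and 236 and 339 in KO diestrus. The highest library held 5.95 times the count of the lowest, and the KO estrus libraries lay below all others. The estrus difference was log2 -1.06 ± 0.32 (adjusted p = 0.0732). Without KO estrus 1 it was -1.46 (adjusted p = 0.0434), and without KO estrus 3 it was -0.67 (adjusted p = 0.144). Markers of luminal progenitors, the cells that carry CD49b, were read beside it. Their summed counts over 7 genes ran from 3083 to 4838 in KO estrus and from 3218 to 4196 in WT estrus. None of the 6 tested was called at estrus (median log2 -0.03), where 4.2% of all tested genes were. Elf5, a transcription factor of these cells, had 35, 29 and 38 counts in WT estrus and 14, 18 and 21 in KO estrus (adjusted p = 0.097). Between KO stages, where Itga2 was called lower, the median of the 6 was -0.41. Of the 6, 1 was called, near the share of all tested genes called there (16.6%). It was Cd14, a co-receptor for bacterial lipopolysaccharide, with 1487, 1128 and 1223 counts at estrus and 793 and 851 at diestrus (log2 0.63, adjusted p = 0.0441). Kit and Aldh1a3, a receptor and an enzyme of progenitors, had log2 differences of -0.73 and -0.66 there and did not pass (adjusted p = 0.0552 and 0.075). The part of progenitor cells in the Itga2 values was not tested.

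Epcam and Cd24a, by far the most abundant of the 10, did not pass the test in any contrast. The gate selected cells high in EpCAM in every group, so the Epcam values compare cells already chosen on its protein. Epcam (chromosome 17, 87635979 to 87651129) had 40580, 42653 and 35421 counts in WT estrus and 36838, 36971 and 50169 in KO estrus. The estrus difference was log2 0.05 with an interval of -0.38 to 0.48. At diestrus it had 41043 and 44508 in WT and 52849 and 48066 in KO (log2 0.24 ± 0.24, adjusted p = 0.994). Cd24a, which encodes a small membrane-anchored glycoprotein (chromosome 10, 43578284 to 43584265), had 29582, 28788 and 24446 counts in WT estrus and 26122, 20676 and 19821 in KO estrus (log2 -0.32 ± 0.19, adjusted p = 0.311). Its diestrus libraries had 27750 and 35430 (WT) and 31391 and 26254 (KO). Ly6a, the gene of the other sort antigen Sca-1, had 14488 to 28010 counts in WT estrus and 21549 to 27186 in KO estrus (log2 0.16 ± 0.26).

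Counted together at estrus, 2 of the 10 genes were lower in KO and 0 higher at adjusted p under 0.05 (limma), where 2.94% of all tested genes were lower and 4.2% were called in either direction. Over all genes the split was 446 lower of 637 called, and it moved to 303 of 574 with equal totals and 423 of 820 with quantile normalization, while Itgav and Itgb6 were called lower under both. The libraries of the groups did not overlap in 5 of the 10, all lower in KO (Itga2, Itga6, Itgav, Itgb1 and Itgb6), against 13.1% of all tested genes. The median log2 difference of the 10 was -0.41, and that of all tested genes -0.01. The members were chosen with earlier results of these data known, so these counts describe the genes and are no test of the list.

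At diestrus none of the 10 genes differed between KO and WT by the test, with adjusted p from 0.994 to 0.996. Only 0.0395% of all tested genes were called there (6 genes), and 899 (5.92%) had an unadjusted p under 0.05 (limma). In Epcam and Itgb1 both KO libraries lay above both WT libraries, as in 21.4% of tested genes. The log2 differences of the 10 ran from -0.13 (Cd24a) to 0.35 (Itga2). The interval for Itgav was -0.36 to 0.50 and that for Itgb6 -0.59 to 0.52, so neither reaches the difference measured at estrus. The difference between the stages was tested on its own as the interaction. It was -1.31 ± 0.25 for Itgav (adjusted p = 0.165), -1.47 ± 0.33 for Itgb6 (adjusted p = 0.191) and -1.41 ± 0.51 for Itga2 (adjusted p = 0.28). No gene of the 15180 passed this test (0.0%), although 2150 (14.2%) had an unadjusted p under 0.05 (limma), so a difference between the stages was not shown for these genes. Averaged over both stages, none of the 10 was called, where 0.665% of tested genes were. Itgav stood at -0.59 (adjusted p = 0.0695) and Itgb6 at -0.77 (adjusted p = 0.0689). With 1 library left out, the averaged fit called Itgav without WT estrus 1 (adjusted p = 0.027) and Itgb6 without WT estrus 3 (adjusted p = 0.0239).

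Within the libraries labelled KO, 5 of the 10 genes were lower at estrus than at diestrus: Itgb6, Itga2, Itgav, Itgb1 and Itga6. This comparison shares the KO estrus libraries with the one above, and it called 8.95% of all tested genes lower and 16.6% in either direction. Itgb6 fell from 647 ± 25.5 counts at diestrus (n = 2) to 221 ± 38 at estrus (n = 3; log2 -1.56 ± 0.23, adjusted p = 0.0047). Itgav fell from 3398 ± 169 to 1259 ± 77.7 (log2 -1.43 ± 0.18, adjusted p = 0.00267), and Itga2 from 288 ± 72.8 to 109 ± 59.6 (log2 -1.51 ± 0.36, adjusted p = 0.0189). Itgb1 fell from 7668 ± 126 to 4125 ± 501 (log2 -0.90 ± 0.17, adjusted p = 0.00914). Itga6 was at the threshold, falling from 4440 ± 307 to 3112 ± 294 (log2 -0.52 ± 0.16, adjusted p = 0.0493). In 6 of the 10 genes, these and Cd24a, no estrus library reached a diestrus library, as in 26.0% of all tested genes.

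These calls rested on both KO diestrus libraries. Without KO diestrus 2 none of the 5 was called (Itgav adjusted p = 0.0528, Itgb6 0.0777, Itgb1 0.112, Itga2 0.191 and Itga6 0.19), and without KO diestrus 1 only Itgav (0.0333) and Itgb6 (0.0447) were. The log2 differences of Itgav and Itgb6 moved little in these fits, from -1.48 to -1.38 and from -1.60 to -1.52. That of Itga2 moved more, from -1.92 to -1.12 over all fits with 1 library left out. Over the same fits Itgb1 ran from -0.99 to -0.81 and Itga6 from -0.59 to -0.43. Itga6 was called in 4 of 20 alternatives, and with the length trend removed its difference was -0.30 and that of Itga2 -1.09, neither called (adjusted p = 0.244 and 0.0727). Itgav, Itgb6 and Itgb1 were called in that fit, at -1.01, -1.21 and -0.65. Cd24a was called with quantile normalization alone (log2 -0.60, adjusted p = 0.0384). Ly6a moved the other way in this comparison, from 12548 ± 2880 counts at diestrus to 25222 ± 3183 at estrus (log2 1.02 ± 0.29, adjusted p = 0.0345). Epcam, Itga3, Itgb4 and Itgb5 did not pass the test, with log2 differences from -0.35 to 0.22.

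**Figure D3:**
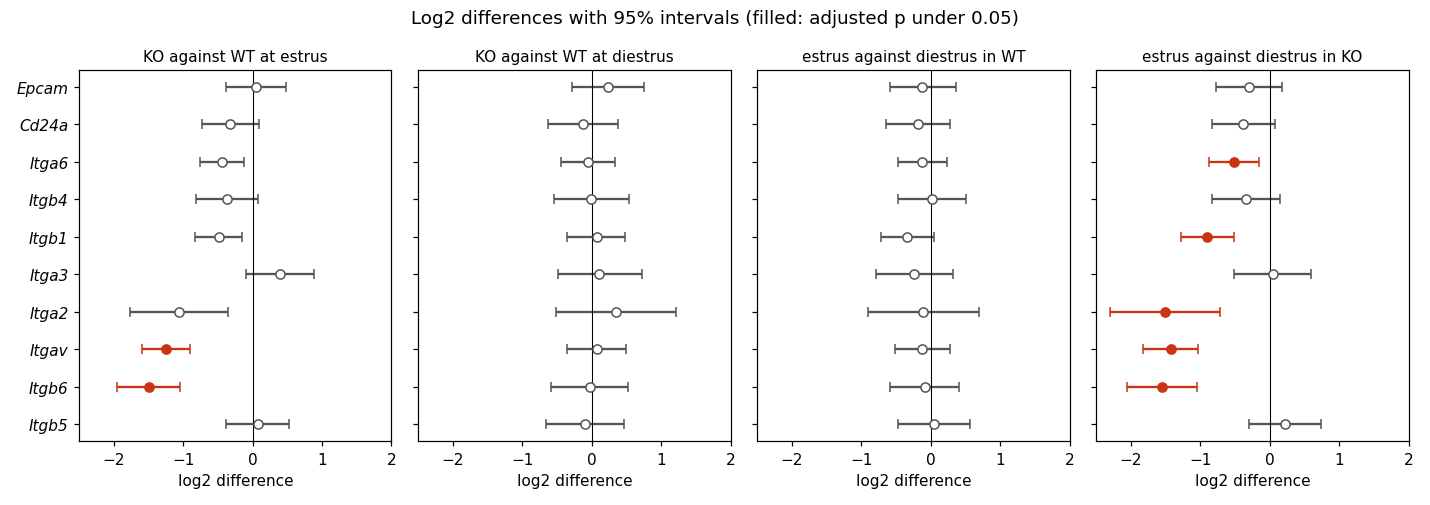
Log2 difference (x axis) of the 10 genes (y axis) in 4 comparisons, with 95% intervals from limma (bars) and filled red points where the adjusted p is under 0.05. Filled points are at -1.25 (Itgav) and -1.50 (Itgb6) for KO against WT at estrus, 5 genes are filled for estrus against diestrus in KO, and none in the middle panels.

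In WT libraries the stage made no difference that the test could call, for the 10 genes or for any of the 15180 (0.0%; 588, or 3.87%, had an unadjusted p under 0.05, limma). The log2 differences of the 10 between estrus and diestrus ran from -0.34 (Itgb1) to 0.05 (Itgb5). For Itgav the interval was -0.51 to 0.27 and for Itgb6 -0.59 to 0.41. Itgb1 was the 1 gene of the 10 whose WT estrus libraries (4774 to 6696) all lay below the WT diestrus libraries (7250 and 7384), as 8.99% of tested genes did.

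Among other genes of the adhesion machinery, vinculin (Vcl), the adaptor that ties integrin-bound talin to actin, fell with a size close to that of Itgav. It had 2338, 3422 and 2963 counts in WT estrus and 1121, 1414 and 1286 in KO estrus, with 3208 and 3080 in WT diestrus and 3022 and 3066 in KO diestrus. The KO estrus libraries lay below all others (log2 -1.18 ± 0.15, adjusted p = 0.00768), and the call was kept in 19 of 20 alternatives, all but the one without KO estrus 1 and 3 together. Of 24 tested focal adhesion genes Vcl alone was called at estrus (4.17%, against 2.94% of all tested genes called lower; median log2 -0.21). Between KO stages Vcl, Pxn, which encodes the scaffold paxillin, and Lims1, which encodes the adaptor PINCH1, were lower at estrus (3 of 24 or 12.5%, against 8.95% of all tested genes; median -0.28), at log2 -1.26, -0.54 and -0.46. Without KO diestrus 1 the count was 1 and without KO diestrus 2 it was 0. The Pxn and Lims1 calls were kept in 8 and 5 of 20 alternatives.

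The 18 tested genes of matrix ligands had a median log2 difference of -0.23 at estrus and of -0.41 between KO stages. At estrus 1 of the 18, a gene not reported here, was called lower (5.56%, against 2.94% of all tested genes). That count was 0 to 1 with 1 library left out and 0 with the length trend removed. Between KO stages 1 was called lower (5.56%, against 8.95%). Lama3 and Lamb3, which encode laminin chains, did not pass the test at estrus (adjusted p = 0.255 and 0.658). Lama3 was low, with 31, 23 and 40 counts in WT estrus and 15, 9 and 26 in KO estrus. Lamb3 had 382, 220 and 161 counts in WT estrus and 320, 189 and 125 in KO estrus, and these groups overlap. Tgfb1 and Tgfb3, whose products in latent form are bound by αvβ6, had log2 differences of 0.39 and -0.03 and did not pass (adjusted p = 0.35 and 0.933).

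Most other integrin subunits were scarce. Of 18 listed, 16 were in the table and 6 reached a mean of 10 counts. None of these 6 passed the test at estrus (median 0.06), where 4.2% of all tested genes did. Itga5, the α chain of the fibronectin receptor, was lower at estrus than at diestrus in KO, with 511, 461 and 402 counts against 931 and 983 (log2 -1.07 ± 0.24, adjusted p = 0.0142), a call lost without either KO diestrus library and without KO estrus 1 and 3 together. In WT, Itga5 had 876, 517 and 463 counts at estrus and 607 and 541 at diestrus. At estrus its KO and WT libraries overlapped (log2 -0.38, limma adjusted p = 0.283). At diestrus both KO libraries lay above both WT libraries, as in 21.4% of tested genes (log2 0.74, limma adjusted p = 0.648). Of the 10 hemidesmosome and tetraspanin genes none was called at estrus (median 0.08) or between KO stages (median 0.03). Of all tested genes 4.2% and 16.6% were called there. Plec, the plectin that links α6β4 to keratin, had 4073 to 5983 counts in WT estrus and 2975 to 7694 in KO estrus. Tspan15, a tetraspanin, was higher in KO averaged over both stages (log2 0.61 ± 0.12, limma adjusted p = 0.0457), a call kept in 4 of 19 alternatives. It was the only 1 of these 10 called there, where 0.665% of all tested genes were.

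Of 24 genes of cell-cell adhesion and EpCAM partners, 6 were lower in KO at estrus and 0 higher (25%, against 2.94% of all tested genes; median -0.30). They include Tjp1, a scaffold of the tight junction, the desmosomal cadherin Dsg2 and E-cadherin, Cdh1. Cdh1 had 20434, 23805 and 18220 counts in WT estrus and 9927, 13472 and 13761 in KO estrus (log2 -0.76 ± 0.18, adjusted p = 0.043). Tjp1 stood at log2 -0.96 ± 0.22 and Dsg2 at -0.81 ± 0.19. Ocln, a tight junction membrane protein, and St14, the protease matriptase, were also lower, at log2 -0.70 and -0.59. Unlike the calls of Itgav, Itgb6 and Vcl, this count depended on single libraries. It was 0 when either KO diestrus library, WT estrus 2 or KO estrus 1 was dropped, 1 without WT estrus 3 or either WT diestrus library, 3 without WT estrus 1, 4 without KO estrus 3, 5 without KO estrus 2, and 1 with the length trend removed. Prom1 was lower between KO stages (log2 -1.66), with 2191, 3414 and 9671 counts at estrus and 12984 and 13432 at diestrus. Its WT libraries had 7053, 7179 and 3868 at estrus and 6764 and 8146 at diestrus. The KO and WT groups overlapped at estrus (log2 -0.48, limma adjusted p = 0.51). The call between KO stages was kept in 11 of 20 alternatives. With Prom1, 10 of the 24 were lower between KO stages (41.7%, against 8.95%, median -0.47), among them Tjp1 at -1.30 and Cdh1 at -1.10. That count was 0 without either KO diestrus library.

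**Figure D4:**
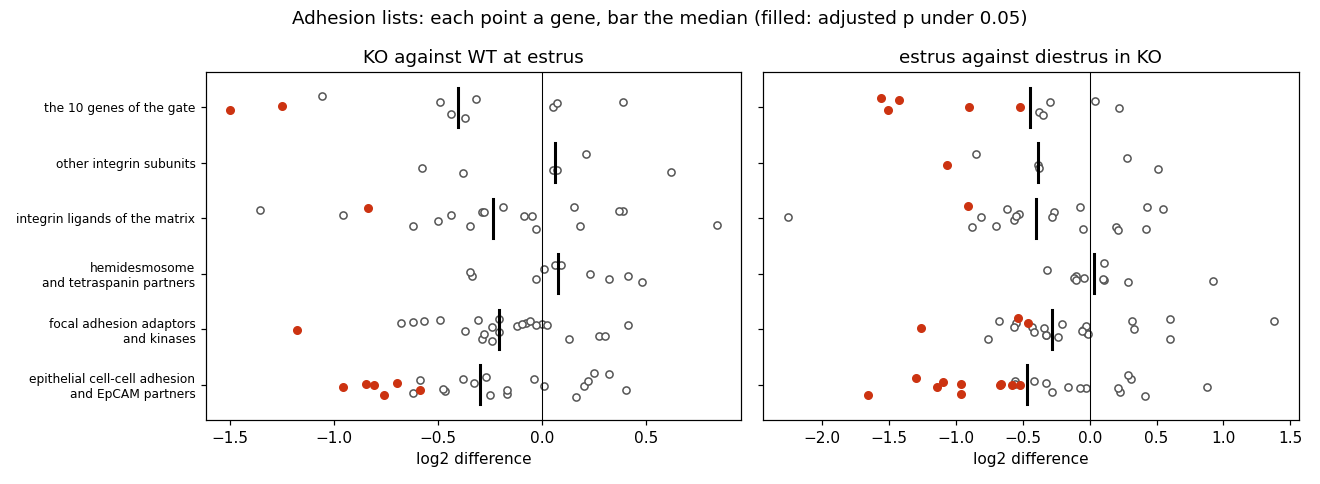
Log2 difference (x axis) of each tested gene (points) of the 10 genes and of 5 adhesion lists (y axis), for KO against WT at estrus and for estrus against diestrus in KO. Bars are medians, and filled points passed at an adjusted p under 0.05, 6 of 24 cell-cell adhesion genes at estrus.

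Markers of other cells in the gate were read in the same libraries. The defining genes of hormone-sensing luminal cells were abundant, with 88100 to 118171 summed counts per library in WT estrus and 102108 to 105884 in KO estrus. Against 4.2% of all tested genes, none of the 8 was called at estrus. Their sums were 90183 and 104756 in WT diestrus and 82528 and 74135 in KO diestrus, the lowest of all libraries. Prlr, Ly6a and Areg have the highest means (38103, 20895 and 17844) and weigh most in these sums. In KO diestrus Esr1 (1988 and 2161), Pgr (994 and 1384), Foxa1 (4129 and 4202) and Cited1 (4151 and 4511) lay within the range of the other libraries. Prom1 (12984 and 13432) was highest there. Between KO stages, where 16.6% of all tested genes were called, Ly6a was called higher and Prom1 lower at estrus. Markers of basal cells, in which α6β4 is high, were present at a low level. Their 8 genes summed to 629 to 2107 counts in WT estrus, 584 to 1262 in KO estrus, 558 to 901 in WT diestrus and 437 to 858 in KO diestrus. At estrus and between KO stages 0 of 6 tested were called, against 4.2% and 16.6% of all tested genes. Within that list Krt5 had 502 counts in KO estrus 1, against 32 to 149 elsewhere, and Krt14 had 903 in WT estrus 1. Among fibroblast markers the matrix proteoglycan gene Dcn ranged from 64 to 3065 counts while Col1a1 stayed between 1 and 11. Endothelial markers summed to 23 to 101 counts and macrophage markers to 289 to 410. Lymphocyte markers summed to 0 to 8 and adipocyte markers to 0 to 2, and pericyte markers to 257 to 592, nearly all of it Notch3. Erythroid and platelet markers summed to 38 to 299. C1qb, a macrophage complement gene, was called higher at estrus than at diestrus in KO, with 44, 30 and 8 counts against 1 and 0. The more abundant macrophage genes Csf1r and Cd68 had log2 differences of -0.28 and -0.38 there and did not pass (adjusted p = 0.315 and 0.522). The part of any such cells in the adhesion values was not tested.

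Itga2 and Itgb6 had the widest range over the libraries, at 2.55 and 1.96 on the log2 scale. Among 10365 other genes with a mean of at least 50, those whose deviations from their own mean came closest to Itgb6 were Gcnt4, Tlr4 and Slc30a4, with mean absolute differences of 0.187, 0.19 and 0.192 on the log2 scale over the 10 libraries. Slc30a4, a zinc transporter, had 1164, 1660 and 1207 counts in WT estrus and 568, 648 and 517 in KO estrus. Itgav ranked 14th on this measure (0.255). Closest to Itga2 were Zfp738, Fam107b and Lmo7 (0.205, 0.212 and 0.238), and the nearest of the 10 genes was Itgb6, ranked 99th (0.33). This likeness includes the groups' own differences and any shared trend of the libraries.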

How the data were processed

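RNA-seq was available for 10 libraries of sorted mouse mammary cells, from RNA of RIN 8 made into libraries with a TruSeq RNA kit per the labels' protocols. The submitters' processing notes name STAR, HTSeq, DESeq2 and the mouse build mm10; tool versions, strand setting and annotation are not given in the sources used here. In the deposited table each value is a score: a read count that the authors had normalized and rounded, per the file's name and whole-number values. They are neither raw counts nor divided by gene length, and raw depth was not used.

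Ensembl identifiers were matched to GENCODE M21 (26249 of 26312 genes, 63 without a symbol). After log2(value + 1), the 15180 genes whose mean reached 10 entered limma 3.58.1 (R 4.3.3), fitted with 1 mean per group and a mean-dependent prior for the spread. Contrasts were two-sided and adjusted by Benjamini-Hochberg over all tested genes (threshold 0.05). Fold changes of low genes are understated by the added 1. Groups of 2 libraries borrow their spread from the others. Per-length levels divide by the longest transcript. The fit was run on simulated libraries drawn with a common spread and no length trend. That run checks the fit itself and does not test the calls reported here. Python 3.11.15 with matplotlib 3.10.9 made the plots.

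The members and lists were chosen with earlier results of these data known. Named genes were the 10 members, Ly6a, Rps6ka3, up to 4 called members per list and contrast (or the 2 of highest mean in a list without a call), leading cell type markers, and the 3 genes most like the 2 widest-ranging members; Elf5, Itgb3, Itgb8, Lama3, Lamb3, Tgfb1, Tgfb3, Plec, Ocln, St14, Krt5, Col1a1, C1qb, Cd14, Kit, Aldh1a3, Csf1r, Cd68 and Notch3 were added after their values were seen. Some genes of the lists are not reported here. The alternatives were a pseudocount of 5, no filter, a filter at a mean of 50, equal totals, quantile normalization, removal of each library's trend on length and GC content (known for 15146 tested genes), no trend of the spread, the compared groups alone, a replicate block, each library left out, and KO estrus 1 and 3 left out together.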

Additional observations from a re-analysis of the deposited data

Results flagged for a closer look

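The Itgb1 libraries of KO and WT were separated at both stages, in opposite order, though neither difference passed the test. All 3 KO estrus libraries (3636 to 4637 normalized counts) lay below all 3 WT estrus libraries (4774 to 6696), and both KO diestrus libraries (7579 and 7757) lay above both WT diestrus libraries (7250 and 7384). The log2 difference was -0.49 ± 0.15 at estrus (limma adjusted p = 0.0765) and 0.07 ± 0.19 at diestrus (adjusted p = 0.996). Such a separation was seen in 13.1% of tested genes at estrus (KO lower) and in 21.4% at diestrus (KO higher). The interaction, which tests the difference between the stages, was -0.56 ± 0.24 and did not pass (limma adjusted p = 0.33).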

How the results depend on the processing

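Of 1180 values of the 10 genes under an alternative, 1146 stayed on the same side of the threshold in the same direction, 28 were no longer called, 6 were newly called and 0 reversed; 46 values not called in either fit changed sign. At estrus 2 of the 10 genes were called, 1 with the compared groups alone and 0 without KO estrus 1 and 3 together. Averaged over both stages 0 were called, 2 with a replicate block (Itgav adjusted p = 0.0367, Itgb6 0.0258), and 0 to 1 with 1 library left out. Between KO stages 5 were called, 3 with the length and GC trend removed, 3 with the compared groups alone, 3 without KO estrus 1 and 3 together, and 0 to 5 with 1 library left out (2 without KO diestrus 1, 0 without KO diestrus 2). The causes were not tested.

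Counts over all genes moved more. At estrus 637 genes were called, 67 to 909 when a single library was dropped (67 for WT estrus 2 and for WT estrus 3, 73 for KO estrus 1, 105 and 104 for KO diestrus 1 and 2, 172 and 171 for WT diestrus 1 and 2), 89 with no filter, 207 with the length and GC trend removed, 44 with no trend of the spread, 996 with the replicate block, 23 with the compared groups alone and 0 without KO estrus 1 and 3 together. At diestrus 6 were called, 0 to 28 with 1 library left out (0 without any 1 diestrus library, 1 without WT estrus 2, 21 without WT estrus 1, 28 without KO estrus 3), 0 with no filter, 3 at a mean of at least 50, 2 with no trend of the spread, 98 with the compared groups alone and 14 without KO estrus 1 and 3 together. Averaged, 101 were called (63 lower), 0 to 77 with 1 library left out (0 without WT diestrus 2 or KO diestrus 2, 19 without WT diestrus 1, 15 without KO diestrus 1, 43 to 61 without WT estrus 2 or 3 or KO estrus 1 or 2), 10 with no filter, 51 with equal totals (22 lower), 56 with the length and GC trend removed, 4 with no trend of the spread and 0 without KO estrus 1 and 3 together. Between KO stages 2524 were called, 39 to 2894 with 1 library left out (151 without KO diestrus 1, 39 without KO diestrus 2, 1331 without KO estrus 1), 1626 with no filter, 1461 with the length and GC trend removed and 195 without KO estrus 1 and 3 together. Between WT stages 0 were called, 0 to 6 with 1 library left out, 1 with the replicate block and 2 without KO estrus 1 and 3 together. The interaction called 0, 0 to 3 with 1 library left out, 3 with quantile normalization and 1 without KO estrus 1 and 3 together.

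The replicate numbers were not taken as pairs. Deviations of same-numbered WT and KO libraries correlated at 0.187, 0.0835 and 0.0309 at estrus and at -0.0363 at diestrus. Among WT estrus libraries, each KO estrus library correlated best with the one of its own number. WT estrus 3 correlated better with KO estrus 2 (0.0786) than with KO estrus 3 (0.0309). These low values do not settle whether the numbers pair the libraries. Raw depth was not used, so precision at low values rests on the spread between libraries.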
